A study of Homo sapiens with 8 samples.

Results

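The genes described here are those of cholesterol synthesis, of its uptake, trafficking and esterification, and of the control of the transcription factor SREBP2. They were chosen by name from a list of 32 genes, out of 38032 gene identifiers in the files, and 31 of them reached 10 counts in 2 or more libraries, as did 13943 genes in all. RNA was sequenced from HepG2, a human hepatocellular carcinoma cell line, after 8 days of culture. In 4 libraries the cells had been grown on flat culture plastic (2D-primed) and in 4 on inserts of the porous polystyrene scaffold Alvetex (3D-primed), in both cases in serum-containing minimal essential medium. All cells of both groups were released with trypsin before lysis. The groups also differed in the number of cells seeded per well, so that geometry and seeding cannot be told apart. The labels do not say whether the 4 libraries of a group came from separate cultures, and the p-values therefore measure the spread between these samples, which may be technical.

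Cells build cholesterol from acetyl-CoA. The mevalonate steps make isoprenoid units, farnesyl diphosphate synthase joins them, squalene synthase commits them to sterols, and a series of oxidations and reductions turns lanosterol into cholesterol. The supply is set largely by SREBP2, a membrane-bound precursor that its escort SCAP carries from the endoplasmic reticulum to the Golgi when sterols are low. There the site-1 and site-2 proteases (MBTPS1 and MBTPS2) release the active factor, while INSIG1 and INSIG2 hold SCAP back when sterols are high. Liver cells are a main site of this pathway, since they make cholesterol for lipoproteins and bile acids.

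Of the 20 enzymes of synthesis, 19 were higher in 3D-primed cells and 1 was lower, with a median log2 fold change (3D-primed over 2D-primed) of 1.75, or 3.35-fold. The lower one was FDFT1, whose values are uncertain for a reason given further on. Genes that handle cholesterol after it is made, or that process SREBP2, moved in both directions, with 7 of 11 higher, 4 lower and a median of 0.22. Over the 31 genes with enough counts, 26 were called higher and 5 lower by edgeR's quasi-likelihood test (Benjamini-Hochberg adjusted p below 0.05). The background was high, because 63.9% of all 13943 genes were called. Of all genes, 32.4% were called higher and 31.6% lower, and of the 31 genes 83.9% were called higher. A call together with a rise of at least 2-fold was made for 16 of the 31 genes, against 4.86% of all genes tested. The median log2 fold change was 1.63 over the 31 genes and 0.013 over all genes, whose median absolute log2 fold change was 0.34.

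The stretches below lie just upstream of the start of 9 of these genes. They are shown for the CCAAT box, the site of the factor NF-Y, which is known to act beside SREBP at sterol-regulated promoters. Whether such sites had a part in the changes was not tested. Each stretch is the 150 bases nearest the start that hold no exon of a protein-coding gene in GENCODE, ending 0 to 70 bases before it, from RefSeq on GRCh38.p14, read 5′ to 3′ on the strand of the gene. Capitals mark CCAAT boxes on either strand (CCAAT or ATTGG) and, in SREBF2, a sterol regulatory element of the form TCACNCCAC. The first 6 genes were higher in 3D-primed cells and the last 3 were lower. No rule is given for the choice of these 9 genes, so they do not show how the box goes with direction. All of the first 6 hold a CCAAT box, whereas 18 of the 23 higher genes with a promoter window (described below) held one. CYP51A1 and PMVK, which were higher and had a window without the box, are not among those shown.
SREBF2: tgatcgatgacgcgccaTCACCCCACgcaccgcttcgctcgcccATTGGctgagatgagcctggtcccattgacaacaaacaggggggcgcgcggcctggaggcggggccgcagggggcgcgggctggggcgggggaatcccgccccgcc
MVK: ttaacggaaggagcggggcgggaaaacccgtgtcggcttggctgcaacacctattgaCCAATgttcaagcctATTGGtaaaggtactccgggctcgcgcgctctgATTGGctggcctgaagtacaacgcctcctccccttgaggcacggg
MVD: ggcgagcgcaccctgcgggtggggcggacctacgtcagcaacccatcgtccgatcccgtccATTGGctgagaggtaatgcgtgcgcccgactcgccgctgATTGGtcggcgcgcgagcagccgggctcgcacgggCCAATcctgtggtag
LSS: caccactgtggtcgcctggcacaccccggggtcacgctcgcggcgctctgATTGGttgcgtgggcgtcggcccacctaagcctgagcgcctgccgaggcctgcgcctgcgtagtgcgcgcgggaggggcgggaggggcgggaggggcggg
MSMO1: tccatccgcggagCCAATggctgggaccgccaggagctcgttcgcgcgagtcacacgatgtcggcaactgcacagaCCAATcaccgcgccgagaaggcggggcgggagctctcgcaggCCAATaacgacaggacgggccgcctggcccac
STARD4: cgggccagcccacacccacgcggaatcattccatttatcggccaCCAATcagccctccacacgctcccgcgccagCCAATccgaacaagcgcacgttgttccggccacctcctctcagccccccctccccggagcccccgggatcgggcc
MYLIP: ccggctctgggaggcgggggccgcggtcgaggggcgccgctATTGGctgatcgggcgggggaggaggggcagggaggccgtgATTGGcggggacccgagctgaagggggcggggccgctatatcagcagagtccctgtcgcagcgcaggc
INSIG2: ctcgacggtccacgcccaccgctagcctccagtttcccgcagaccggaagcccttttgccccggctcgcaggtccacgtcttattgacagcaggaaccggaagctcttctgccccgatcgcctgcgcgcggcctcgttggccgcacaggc
SCAP: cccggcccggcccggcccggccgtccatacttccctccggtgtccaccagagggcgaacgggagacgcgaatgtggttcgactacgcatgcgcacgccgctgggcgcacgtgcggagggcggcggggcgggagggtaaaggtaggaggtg
The positions are SREBF2 chr22:41832955-41833104 (plus strand), MVK chr12:109573643-109573792 (plus strand), MVD chr16:88663162-88663311 (minus strand), LSS chr21:46228825-46228974 (minus strand), MSMO1 chr4:165327517-165327666 (plus strand), STARD4 chr5:111512591-111512740 (minus strand), MYLIP chr6:16128936-16129085 (plus strand), INSIG2 chr2:118088302-118088451 (plus strand) and SCAP chr3:47475956-47476105 (minus strand).

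In SREBF2, which encodes SREBP2, the sterol regulatory element began 133 bases before the start and a CCAAT box began 106 bases before it. This stretch also overlaps a long non-coding RNA on the other strand. MVK, MVD and MSMO1 each held 3 CCAAT boxes in the stretch shown, STARD4 held 2 and LSS 1. Of the genes shown that fell, MYLIP held 2, and INSIG2 and SCAP held none.

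Promoter windows of 250 bases before to 50 bases after the start were found for 28 of the 32 genes. Both strands of the 250 bases before the start were searched, and the 50 bases after it were not. CCAAT was present in 20 of the 28 genes (71.4%), against 41.6% of the 10207 tested genes with a window and 37.0% of all 27305 genes. It was present in 18 of the 23 genes that were called higher and had a window, in 1 of the 4 called lower, and in 13 of the 14 that rose at least 2-fold. The same shares over all genes called higher, called lower or raised at least 2-fold were not computed. No link between the box and the direction of change is drawn from these counts. The GC box GGGCGG was found in 24 genes (85.7%, against 74.1% of tested genes) and the E-box CACGTG in 3 (10.7%, against 11.1%). The sterol regulatory element TCACNCCAC was found in SREBF2 alone of the 28, and in 310 of all 35116 windows (0.883%). Its looser form TCNCNCCAC, which includes the first, was found in SREBF2 and FDPS and in 5.89% of all windows. These matches are descriptions of the letters in the 250 bases before the start and not of binding. Of the NF-Y subunits, which were chosen for naming after their values were seen, none passed the test in edgeR. The log2 fold change was -0.05 for NFYA (95% interval -0.15 to 0.06), 0.02 for NFYB (-0.12 to 0.16) and 0.01 for NFYC (-0.09 to 0.11).

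The libraries held 21599630 to 27844077 counts. All 8 hepatocyte markers were higher in 3D-primed cells. Their summed level was 44478 to 49632 CPM (counts scaled to a common library size) in 2D-primed and 81675 to 89539 CPM in 3D-primed libraries. Summed levels of markers were scaled by the total counts of each library alone, without TMM adjustment. The CPM of single genes were scaled after TMM adjustment, so sums and single genes are not on the same scale. Albumin (ALB) alone rose from 26391 ± 1398 to 44035 ± 3511 CPM (SD, n = 4). Summed markers of fibroblasts were at 10.8 to 11.99 CPM in 2D-primed and 15.5 to 17.95 CPM in 3D-primed libraries, those of endothelium at 4.61 to 6.48 and 2.51 to 3.66 CPM, and those of leukocytes at 2178 to 2262 and 2426 to 3007 CPM, nearly all of it from lysozyme (LYZ). Of the 5 fibroblast, 4 endothelial and 5 leukocyte markers, 2, 2 and 3 held enough counts to be tested. The others, COL1A2, DCN, LUM, KDR, TEK, PTPRC and CD3E, held 0 to 2 counts in every library. The tested markers did not all move with the sum of their list. Among the fibroblast markers PDGFRB rose 1.53-fold, from 10.7 to 16.4 CPM (edgeR adjusted p = 1.8e-05). COL1A1 held 16 to 28 counts in 2D-primed and 0 to 3 counts in 3D-primed libraries (edgeR adjusted p = 9.6e-05). It passed the filter on counts only through the 2D-primed group, where it was high, so its p-value is not used as support. Of the endothelial ones CDH5 fell 2.96-fold, from 4.73 to 1.59 CPM (edgeR adjusted p = 2.7e-05), and PECAM1, with 18 to 45 counts in a library, did not pass the test (edgeR adjusted p = 0.12). Of the leukocyte ones CD68 fell 2.11-fold, from 72.7 to 34.4 CPM, whereas CD14 rose 1.71-fold and LYZ 1.22-fold (edgeR adjusted p = 6.3e-07, 0.0017 and 0.0024). The mitochondrially encoded share of counts was 1.40 to 1.81% in 2D-primed and 2.47 to 2.98% in 3D-primed libraries. The part of these markers and of the mitochondrial share in the results below was not tested. All libraries are labelled as HepG2 cells, so the marker lists are not read as numbers of cells of other types. In bulk RNA, a change in some of the HepG2 cells and a change in all of them cannot be told apart.

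Of all counts in a library, the 32 genes took 0.226 to 0.252% in 2D-primed cells, against 0.573 to 0.599% after 3D priming. The enzymes took 0.108 to 0.137% and 0.448 to 0.474%. In none of the 31 genes did the libraries of the groups overlap, against 59.8% of all genes tested with no overlap (30.2% with 3D-primed above and 29.5% with 3D-primed below). The plot of levels by library shows this spacing for each gene. In the values that follow, the libraries of a group are given in the order of replicates 1 to 4.

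**Figure D1:**
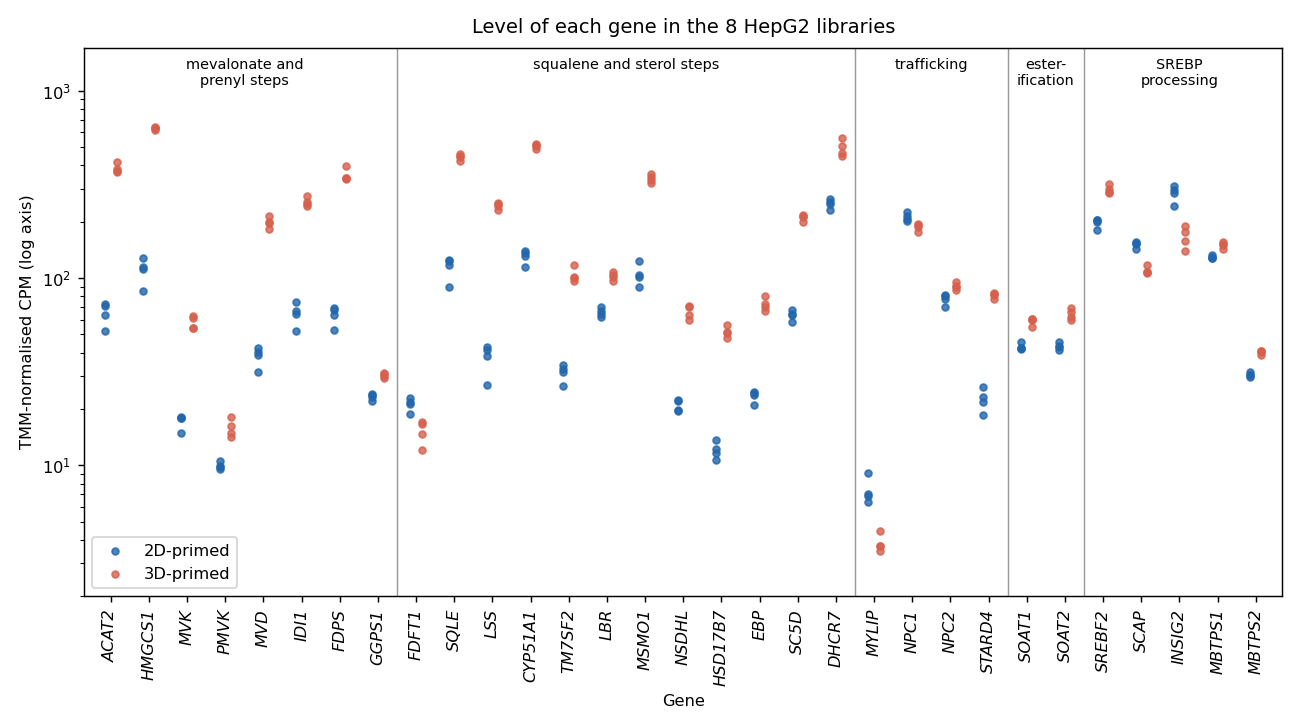
Level of each of the 31 genes (x axis, in pathway order) in CPM on a log axis (y axis), with 1 point for each of the 4 2D-primed (blue) and 4 3D-primed (orange) libraries. The groups do not overlap for any gene, and the enzymes of synthesis are mostly further apart than the genes of esterification and SREBP processing.

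All 8 genes of the mevalonate and prenyl steps rose, with a median log2 fold change of 2.19. HMGCS1, which makes HMG-CoA in the cytosol, was at 128, 114, 85.3 and 111 CPM in the 2D-primed libraries and at 630.2, 617, 636 and 643 CPM in the 3D-primed libraries. Its 3D-primed libraries lay within a narrow band and all far above the 2D-primed ones, a rise of 5.77-fold in edgeR (log2 fold change 2.53 ± 0.10, SE, adjusted p = 4.1e-08). ACAT2, the cytosolic thiolase that supplies acetoacetyl-CoA and is not one of the esterifying enzymes, went from 71.1, 63.8, 52.1 and 72.8 CPM to 418, 381, 371 and 367 CPM. With 5.92-fold (log2 fold change 2.57 ± 0.098, SE, adjusted p = 2.9e-08, edgeR) it had the second largest rise of the 31 genes, after LSS.

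FDPS, which makes farnesyl diphosphate, was at 67.8, 63.8, 52.7 and 69.4 CPM in 2D-primed and at 396, 342, 343 and 337 CPM in 3D-primed libraries. Replicate 1 stood above the other 3D-primed libraries, and the rise was 5.59-fold (edgeR, log2 fold change 2.48 ± 0.089, SE, adjusted p = 2.2e-08). FDPS has near-identical pseudogene copies, and the division of reads between them in the counting is uncertain. MVD, which decarboxylates mevalonate diphosphate, was at 42.2, 40.4, 31.4 and 38.7 CPM and at 215, 183, 199.7 and 197 CPM, 5.21-fold higher in 3D-primed cells (log2 fold change 2.38 ± 0.087, SE, adjusted p = 2.4e-08, edgeR). IDI1, the isomerase that makes the allylic unit, rose 3.97-fold from between 52.3 and 74.5 CPM to between 244 and 275 CPM. MVK, the kinase that acts on mevalonate, rose 3.39-fold from between 14.8 and 18.2 CPM to between 54.3 and 63.04 CPM.

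The smallest rises of this stretch were those of PMVK and GGPS1. PMVK, which adds the second phosphate, was at 9.58, 9.98, 9.77 and 10.5 CPM in 2D-primed and at 18.2, 14.2, 14.9 and 16.2 CPM in 3D-primed libraries (1.59-fold, log2 fold change 0.67 ± 0.082, SE, adjusted p = 4.3e-05, edgeR). It lies between MVK and MVD in the pathway, and its 95% interval (0.49 to 0.85) ended below those of both, as the plot of fold changes in pathway order shows. GGPS1 makes geranylgeranyl diphosphate for protein prenylation and so leads away from sterols. Its level was 22.04, 23.1, 23.7 and 24.1 CPM and then 29.9, 31.1, 30.6 and 29.1 CPM, the smallest rise among the enzymes at 1.30-fold (log2 fold change 0.38 ± 0.045, SE, adjusted p = 4.0e-05, edgeR).

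**Figure D2:**
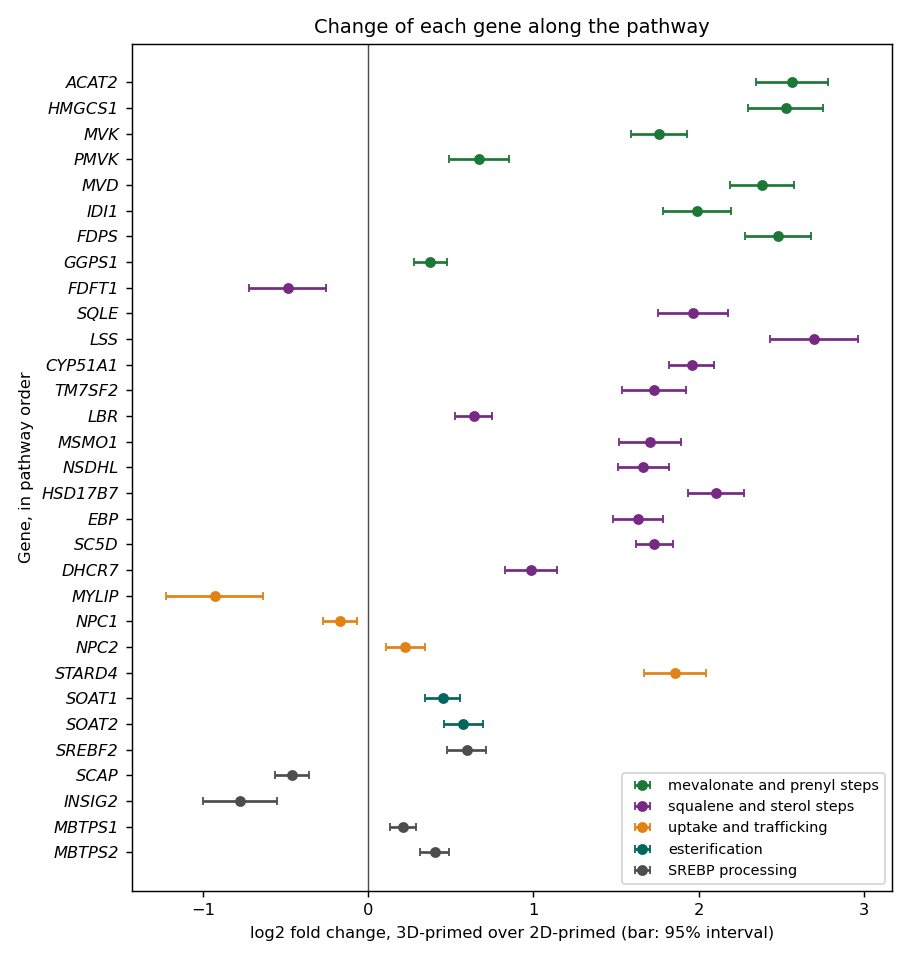
Log2 fold change, 3D-primed over 2D-primed (x axis), of the 31 genes in pathway order (y axis), with points for edgeR estimates, bars for 95% intervals and colours for the groups of genes. LSS at 2.70 and ACAT2 at 2.57 lie furthest to the right, and MYLIP at -0.93 and INSIG2 at -0.77 furthest to the left.

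Among the 12 genes from squalene to cholesterol, 11 rose and FDFT1 fell, with a median log2 fold change of 1.72. SQLE, the squalene monooxygenase and a rate-limiting step of the sterol branch, was at 125, 123, 89.1 and 117 CPM in 2D-primed and at 450.4, 422, 443 and 459 CPM in 3D-primed libraries. That was a rise of 3.91-fold (edgeR, log2 fold change 1.97 ± 0.095, SE, adjusted p = 1.0e-07), with replicate 3 lowest among the 2D-primed libraries. LSS, which closes the rings to give lanosterol, had the largest rise of the 31 genes. It was at 38.3, 42.97, 26.98 and 41.6 CPM and at 250.5, 231, 248 and 242 CPM, or 6.49-fold higher in 3D-primed cells (log2 fold change 2.70 ± 0.12, SE, adjusted p = 6.3e-08, edgeR). Of the 6 transcripts of LSS, 5 also matched an alternate contig of chromosome 21 over at least 75% of their length at 99% identity or more, and 0 of the other 31 genes had such a match. Whether a part of the LSS reads was counted under another identifier was not tested. The search covered 261 alternate contigs and no later patches of the genome. It therefore cannot tell whether FDFT1, INSIG1 or another gene has a copy on a patch.

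CYP51A1, the lanosterol demethylase, read 140.3, 136, 115 and 132 CPM in 2D-primed and 508, 488, 515 and 522 CPM in 3D-primed libraries. The spread within each group was small beside this 3.89-fold rise (edgeR, log2 fold change 1.96 ± 0.061, SE, adjusted p = 1.2e-08). The genes that remove the methyl groups at carbon 4 rose together. MSMO1, the oxidase, went from between 89.4 and 123 CPM to between 323 and 357 CPM (3.26-fold), NSDHL, the decarboxylating dehydrogenase, from between 19.5 and 22.2 CPM to between 59.8 and 70.9 CPM (3.17-fold), and HSD17B7, the keto-reductase, from between 10.7 and 13.6 CPM to between 47.8 and 56.2 CPM (4.30-fold). Their adjusted p in edgeR were 1.1e-07, 4.6e-08 and 2.2e-08. HSD17B7 has a near-identical pseudogene, so its share of reads is uncertain.

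Of the last steps, EBP, the isomerase that moves the ring double bond, rose 3.10-fold, from between 20.9 and 24.6 CPM to between 66.8 and 79.9 CPM. SC5D, the desaturase after it, rose 3.32-fold, from between 58.4 and 67.2 CPM to between 198 and 216 CPM, with an adjusted p of 7.9e-09 in edgeR. DHCR7, which reduces 7-dehydrocholesterol to cholesterol, started from the highest level of all the enzymes per kilobase of transcript (given further on). It read 249, 265, 232 and 256 CPM in 2D-primed and 508, 467, 560.3 and 449 CPM in 3D-primed libraries, which came to 1.98-fold (log2 fold change 0.99 ± 0.071, SE, adjusted p = 1.1e-06, edgeR).

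TM7SF2 and LBR both encode a sterol C14-reductase, and LBR is also a receptor for lamin B at the nuclear envelope. TM7SF2 was at 31.7, 32.6, 26.5 and 34.4 CPM and at 117, 99.9, 96.3 and 101 CPM, and LBR at 69.9, 66.8, 61.8 and 64.3 CPM and at 96.05, 102, 103 and 108 CPM. Both rose (edgeR, adjusted p = 1.2e-07 and 1.9e-06), TM7SF2 by 3.31-fold and LBR by 1.56-fold. Within a library, the log2 ratio of the counts of TM7SF2 to those of LBR was -1.22 to -0.90 in 2D-primed and -0.10 to 0.29 in 3D-primed cells, a difference of 1.09. The ratio was higher in 4 of 4 3D-primed libraries than in any 2D-primed one (two-sided exact permutation test, p = 0.0286, the smallest that 4 against 4 libraries can give, adjusted p = 0.04 over 7 pairs tested, of which 6 are reported). Without replicate 2, 3 or 4 of the 2D-primed libraries the adjusted p of the exact permutation test was 0.05, at the threshold and not below it, for this pair and for FDFT1/GGPS1, ACAT2/ACAT1 and NPC1/NPC2.

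FDFT1, squalene synthase, was the exception among the enzymes. The identifier of FDFT1 held 18.8, 21.8, 22.9 and 21.3 CPM in 2D-primed and 17.01, 12.1, 14.6 and 16.6 CPM in 3D-primed libraries, 1.40-fold lower in 3D-primed cells (log2 fold change -0.49 ± 0.11, SE, adjusted p = 0.0021, edgeR). Per kilobase of transcript, its mean of 7.42 CPM in 3D-primed cells was the lowest of the 20 enzymes. The ratio of FDFT1 to GGPS1, the enzymes that draw on farnesyl diphosphate for sterols and for prenylation, was 0.87 lower on the log2 scale in 3D-primed cells (exact permutation test, p = 0.0286, adjusted p = 0.04). These values, and with them the ratio to GGPS1, are uncertain, and nothing about the branch point is drawn from that ratio. The annotation used here does not name 3055 of the counted identifiers, which held 2.48% of all counts, and whether reads of FDFT1 were counted under one of them was not tested.

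The other pairs set related genes against each other in the same way, as the plot of ratios shows. ACAT2 rose far more than ACAT1, its mitochondrial counterpart in ketone body and amino acid metabolism, which went from 62.6 ± 3.995 to 80.6 ± 6.21 CPM (1.29-fold, edgeR adjusted p = 5.6e-04). The log2 ratio of ACAT2 to ACAT1 was -0.13 to 0.23 in 2D-primed and 2.20 to 2.34 in 3D-primed libraries (difference 2.21, exact permutation test, p = 0.0286, adjusted p = 0.04).

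**Figure D3:**
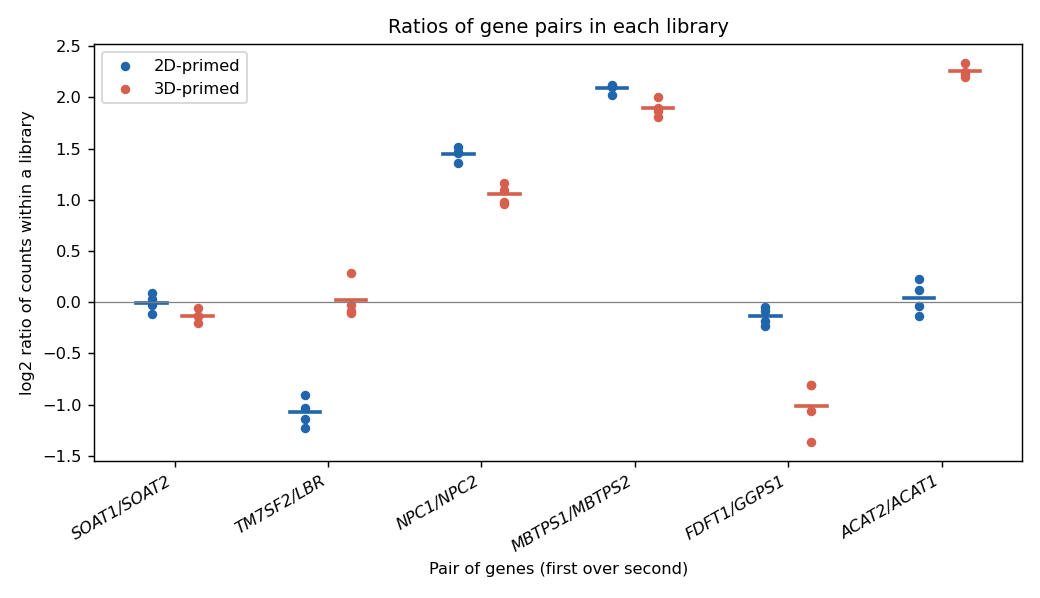
Log2 ratio of the counts of the first to the second gene within each library (y axis) for 6 pairs of related genes (x axis), with points for libraries and lines for group means. ACAT2/ACAT1 moves by 2.21 and TM7SF2/LBR by 1.09, whereas SOAT1/SOAT2 overlaps between the groups. FDFT1/GGPS1 rests on the uncertain counts of FDFT1.

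Of the 4 genes of uptake and trafficking, STARD4 and NPC2 rose and MYLIP and NPC1 fell. STARD4, a soluble carrier that moves cholesterol between membranes, was at 26.2, 21.7, 18.6 and 23.2 CPM in 2D-primed and at 81.5, 77.6, 83.3 and 82.3 CPM in 3D-primed libraries. Its rise of 3.63-fold (log2 fold change 1.86 ± 0.084, SE, adjusted p = 7.1e-08, edgeR) was in the range of the enzymes. MYLIP, a ubiquitin ligase induced by sterols that marks lipoprotein receptors for degradation, read 6.37, 7.002, 9.08 and 6.88 CPM and 3.70, 3.50, 4.44 and 3.73 CPM. The 2D-primed replicate 3 was the highest, and MYLIP was 1.91-fold lower in 3D-primed cells (edgeR, log2 fold change -0.93 ± 0.13, SE, adjusted p = 1.3e-04).

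NPC1 and NPC2 pass cholesterol out of the lysosome one after the other, NPC2 in its lumen and NPC1 in its membrane. NPC1 was at 201, 214, 224 and 207 CPM and at 187, 176, 194 and 193 CPM, the smallest change of all at 1.13-fold lower (log2 fold change -0.17 ± 0.047, SE, adjusted p = 0.0085, edgeR). The gap between the lowest 2D-primed and the highest 3D-primed library was smaller than the range of either group. NPC2 was at 70.1, 77.7, 81.3 and 80.7 CPM and at 94.9, 90.5, 86.5 and 90.1 CPM, 1.17-fold higher (edgeR, log2 fold change 0.22 ± 0.053, SE, adjusted p = 0.0037). The ratio of NPC1 to NPC2 was lower by 0.40 on the log2 scale in 3D-primed cells, with no overlap (exact permutation test, p = 0.0286, adjusted p = 0.04).

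The esterifying enzymes changed little beside those of synthesis. SOAT1, the widely expressed acyltransferase that stores cholesterol as esters, was at 45.6, 42.3, 42.4 and 41.9 CPM in 2D-primed and at 60.1, 60.04, 54.5 and 60.5 CPM in 3D-primed libraries (1.37-fold, log2 fold change 0.45 ± 0.047, SE, adjusted p = 1.4e-05, edgeR). SOAT2, the form of liver and intestine that supplies esters for lipoproteins, was at 42.7, 41.5, 43.3 and 45.4 CPM and at 66.02, 62.3, 59.7 and 69.6 CPM (1.49-fold, log2 fold change 0.58 ± 0.053, SE, adjusted p = 5.9e-06, edgeR). Both rose, and their ratio within libraries overlapped between the groups, with a difference of -0.12 on the log2 scale (exact permutation test, p = 0.0571, adjusted p = 0.0571).

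The genes that make and process SREBP2 were split. SREBF2 itself read 203, 204, 181 and 200.3 CPM in 2D-primed and 287, 298, 319 and 285 CPM in 3D-primed libraries. This was a rise of 1.51-fold (edgeR, log2 fold change 0.59 ± 0.052, SE, adjusted p = 4.4e-06), smaller than that of 18 of the 20 enzymes. Its proteases rose by less, MBTPS1 from between 129 and 132 CPM to between 143 and 156 CPM (1.16-fold, edgeR adjusted p = 5.1e-04) and MBTPS2 from between 29.5 and 31.7 CPM to between 38.8 and 41.00 CPM (1.32-fold, edgeR adjusted p = 8.5e-06). The ratio of MBTPS1 to MBTPS2 was 0.19 lower on the log2 scale in 3D-primed cells (exact permutation test, p = 0.0286, adjusted p = 0.04). This call was lost without any 1 of the 4 2D-primed libraries (adjusted p = 0.0571 to 0.08, exact permutation test).

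The escort and the retention factor fell. SCAP was at 143, 156, 153 and 151 CPM in 2D-primed and at 107, 108, 117 and 106 CPM in 3D-primed libraries, 1.38-fold lower (log2 fold change -0.46 ± 0.046, SE, adjusted p = 9.6e-06, edgeR). INSIG2 was at 242, 285, 296 and 312 CPM and at 176, 157, 189.98 and 139.8 CPM, 1.71-fold lower (log2 fold change -0.77 ± 0.10, SE, adjusted p = 7.0e-05, edgeR). Its libraries spread more widely than those of SCAP, with the highest 3D-primed library at 189.98 CPM and the lowest 2D-primed library at 242 CPM. INSIG1, itself a target of SREBP in most cells, held 1, 6, 0 and 0 counts in the 2D-primed and 1, 0, 3 and 0 counts in the 3D-primed libraries and was not tested. As for FDFT1, whether its reads were counted under another identifier was not tested, and no level of INSIG1 is drawn from these counts.

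On a scale of CPM per kilobase of the canonical transcript, which allows levels of different genes to be set side by side, DHCR7 (95.4), NPC2 (94.3) and INSIG2 (79.7) were the most abundant of the 31 genes in 2D-primed cells. In 3D-primed cells they were ACAT2 (253), FDPS (250.05) and DHCR7 (189). ACAT2 and FDPS stood at 42.7 and 44.8 CPM per kilobase in 2D-primed cells, closely together in either culture. MYLIP was the least abundant on this scale in both groups, at 2.39 after 2D priming and 1.25 after 3D priming. SREBF2 moved from 37.6 to 56.8 and SCAP from 35.5 to 25.8.

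Many of the enzymes were lowest or highest of their group in the same library. Replicate 3 of the 2D-primed libraries was the lowest of its group in 17 of the 20 enzymes, with a median deviation of -0.20 (log2) from the group mean, and its deviations reached -0.45 in LSS. PMVK, GGPS1 and FDFT1, the enzymes with the smallest or opposite changes beside LBR, were those in which it was not the lowest. SREBF2, STARD4 and MBTPS2 were lowest in it too, whereas MYLIP, NPC1 and NPC2 were highest. Among the 3D-primed libraries, replicate 1 was the highest in 14 of the 20 enzymes, with a median deviation of 0.10. Replicate 2 of this group was below the group mean in 18 of the 20 enzymes, with a median deviation of -0.064. The median deviation of the other 11 genes was 0.0022 in 2D-primed replicate 3, 0.0076 in 3D-primed replicate 1 and -0.019 in 3D-primed replicate 2. The share of all genes that were lowest or highest in these libraries was not computed. The counts are therefore not read as particular to the enzymes. Without replicate 3 of the 2D-primed group, 26 genes were again called higher and 5 lower, and the median log2 fold change of the enzymes was 1.69.

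**Figure D4:**
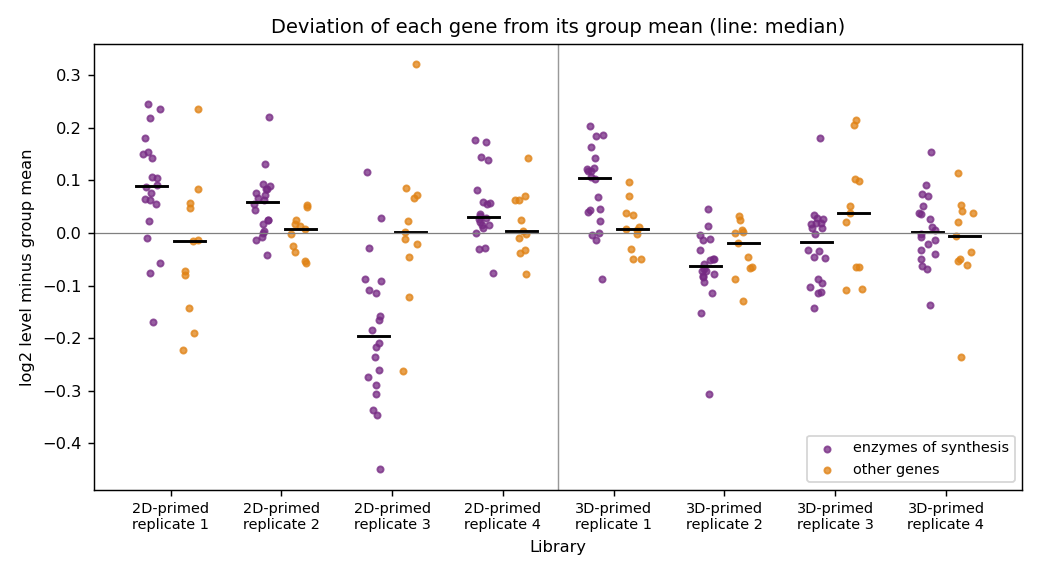
Deviation of the log2 level of each gene from the mean of its group (y axis) in each library (x axis), with 20 enzymes of synthesis in purple, the 11 other genes in orange and a line at each median. The enzymes in 2D-primed replicate 3 have a median of -0.20 and those in 3D-primed replicate 1 a median of 0.10, while the medians of the other genes lie closer to 0.

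A wider list of 52 genes that act around the pathway was set beside these. Of its 49 tested genes, 15 rose, 18 fell and 16 did not pass the test in edgeR, with a median log2 fold change of 0.01. The share called, 67.3%, was near the 63.9% of all genes. A call with a rise of at least 2-fold was made for 2 of the 49, TMEM97 and ERG28.

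Of the 17 regulators, 3 rose, 10 fell and 4 did not pass. TMEM97, a membrane protein of sterol transport that binds NPC1 and is induced when sterols are low, was at 62.5, 57.6, 43.95 and 53.1 CPM in 2D-primed and at 186, 182, 187 and 184 CPM in 3D-primed libraries. It rose 3.41-fold (log2 fold change 1.77 ± 0.088, SE, adjusted p = 1.2e-07, edgeR), and replicate 3 was again its lowest 2D-primed library. SREBF1, which encodes the SREBP that mainly drives fatty acid synthesis, was at 49.3, 50.7, 45.99 and 48.1 CPM and at 83.2, 81.3, 87.7 and 90.6 CPM, or 1.77-fold higher (edgeR, log2 fold change 0.82 ± 0.047, SE, adjusted p = 2.7e-07). RNF145, a ubiquitin ligase of the endoplasmic reticulum that can act on SCAP, fell 1.77-fold, from between 41.4 and 44.97 CPM to between 23.6 and 24.5 CPM (edgeR adjusted p = 1.2e-07).

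Of the electron donors and scaffold proteins that serve the oxidative steps, 3 of 6 rose, 2 fell and 1 did not pass. ERG28, a scaffold that holds the enzymes of demethylation at carbon 4, was at 34.3, 35.9, 29.4 and 33.3 CPM in 2D-primed and at 111, 95.5, 97.5 and 96.97 CPM in 3D-primed libraries. Its rise of 3.02-fold (log2 fold change 1.59 ± 0.069, SE, adjusted p = 5.8e-08, edgeR) was close to that of NSDHL and MSMO1. PGRMC1, a heme protein that binds CYP51A1, rose 1.88-fold, from between 80.3 and 84.2 CPM to between 149 and 162 CPM (edgeR adjusted p = 5.2e-08). CYB5R3, the reductase of cytochrome b5, fell 1.67-fold, from between 486 and 529 CPM to between 269.6 and 330.2 CPM (edgeR adjusted p = 3.9e-06).

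Of the 14 genes of sterol transport and hydrolysis, 11 were tested, of which 2 rose, 4 fell and 5 did not pass. SCARB1, the receptor that takes up cholesteryl esters from high-density lipoprotein, was at 629.6, 692, 709 and 668 CPM in 2D-primed and at 293, 289, 325 and 258 CPM in 3D-primed libraries, 2.32-fold lower (log2 fold change -1.21 ± 0.068, SE, adjusted p = 2.3e-07, edgeR). GRAMD1A, which carries cholesterol from the plasma membrane to the endoplasmic reticulum, was 2.41-fold lower at 52.9 to 60.3 CPM, against 124 to 144 CPM in 2D-primed cells (edgeR adjusted p = 6.9e-08). NCEH1, a hydrolase of cholesteryl esters, was 2.12-fold lower at 42.9 to 46.4 CPM, against 89.3 to 101 CPM (edgeR adjusted p = 5.2e-08).

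The 15 genes that use isoprenoids outside sterol synthesis moved little, with 7 higher, 2 lower, 6 not past the threshold and a median log2 fold change of 0.12. ZMPSTE24, the protease that trims prenylated prelamin A, rose 1.57-fold (log2 fold change 0.65 ± 0.058, SE, adjusted p = 4.9e-06, edgeR). NUS1, a subunit of the enzyme that makes dolichol, rose 1.28-fold and RABGGTA, a subunit of the transferase that prenylates Rab proteins, fell 1.27-fold (edgeR adjusted p = 1.3e-05 and 8.4e-05). The plot of the wider list shows the rises of TMEM97 and ERG28 apart from the rest.

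**Figure D5:**
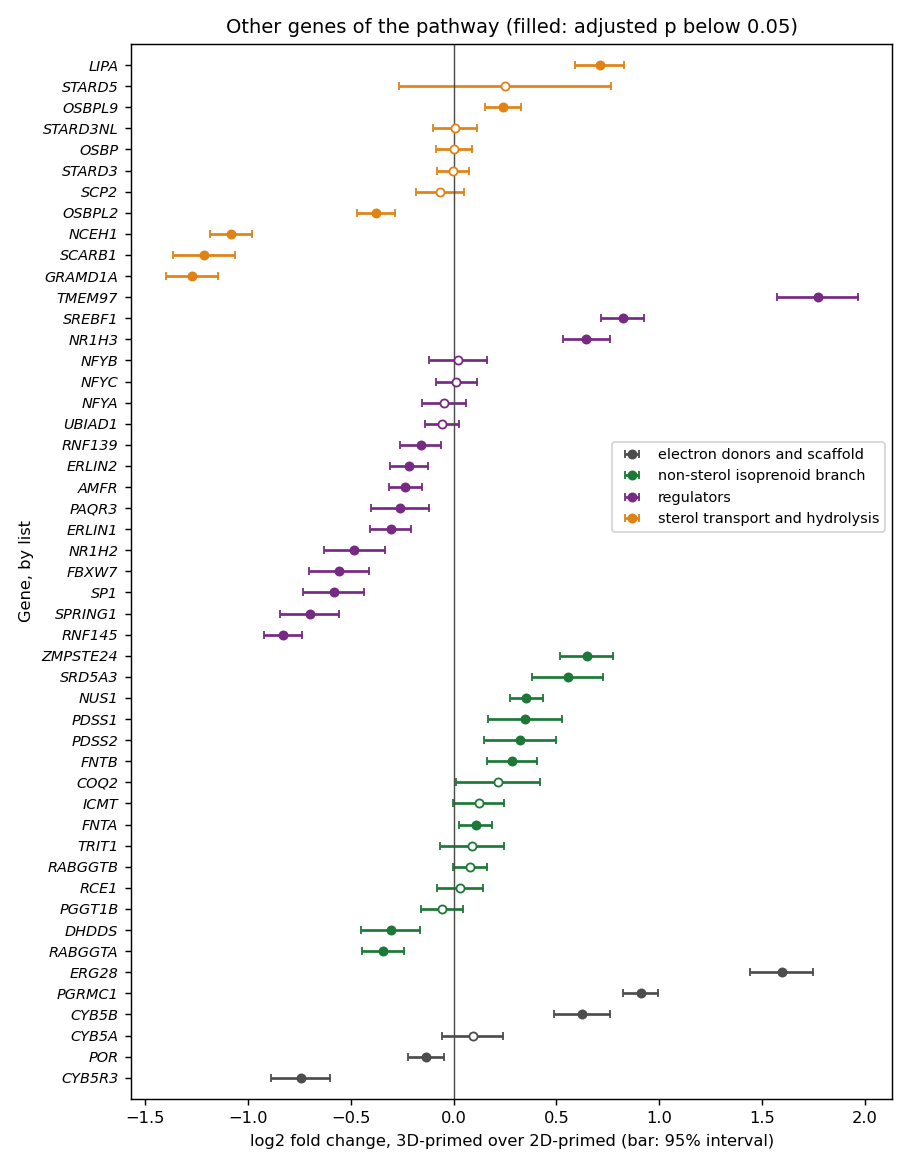
Log2 fold change, 3D-primed over 2D-primed (x axis), of the 49 tested genes around the pathway (y axis, by list), with bars for 95% intervals, filled points for an adjusted p below 0.05 in edgeR and open points for the others. TMEM97 at 1.77 and ERG28 at 1.59 lie furthest to the right and GRAMD1A at -1.27 furthest to the left.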

How the data were processed

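The authors aligned read pairs of polyadenylated RNA to the Ensembl human cDNA with Salmon and summed transcripts to genes with tximport. The deposited values are estimated counts per gene, whole numbers that are not scaled to depth, and whether they carry a correction for transcript length is not given in the sources used here. Libraries were grouped by their labels, 4 in each of 2 groups. Identifiers were matched to GENCODE 44 (GRCh38), which named 34977 of 38032 (97.5% of counts). Genes that reached 10 counts in 2 or more libraries were retained, scaled by TMM and tested with glmQLFit and glmQLFTest in edgeR 4.0.16 (R 4.3.3), with Benjamini-Hochberg adjustment over all genes and a threshold of 0.05. Standard errors are the log2 fold change over the square root of F. CPM are given as mean ± SD. Log2 ratios of gene pairs within libraries, with 0.5 counts added, were compared by two-sided exact permutation tests, adjusted over 7 pairs, of which 6 are reported. Libraries of a group differed by more than counting noise (chi-square per degree of freedom 6.32 to 17.4). Alternatives were DESeq2 1.42.0, limma-voom (limma 3.58.1), other size factors and filters, a replicate block and leaving out each library. The pipeline was tested on simulated data in which far fewer genes changed than were called here. Its error rate in a setting like that of these data was not tested. The genes named are all 32 of the pathway, the 3 with the smallest p in each wider list, both genes of each reported pair and ALB. Outside this rule, the markers of other cell types are named from their lists, and these markers, the NF-Y subunits and 2 unnamed identifiers were chosen for naming after values were seen. The genes and lists were chosen with earlier results of these data known. Some genes of the pathway are not reported here.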

Additional observations from a re-analysis of the deposited data

Results flagged for a closer look

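Of 98 groups of 4 libraries, each being the 2D-primed or the 3D-primed libraries of 1 gene or 1 ratio, 6 held a library whose gap to the others passed Dixon's 95% critical value. Chance alone gives this in about 1 in 20 groups, so that 6 is close to the number chance would give. MVK was at 14.8 CPM in 2D-primed replicate 3, with the other 3 libraries at 17.8 to 18.2 CPM, and SREBF2 was at 181 CPM in the same library, with the others at 200.3 to 204 CPM. FDPS was at 396 CPM in 3D-primed replicate 1 (others 337 to 343 CPM), as ERG28 was at 111 CPM (others 95.5 to 97.5 CPM). SOAT1 was at 45.6 CPM in 2D-primed replicate 1 (others 41.9 to 42.4 CPM) and at 54.5 CPM in 3D-primed replicate 3 (others 60.04 to 60.5 CPM). Each of these 5 genes was called higher in 3D-primed cells with every library left out in turn.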

How the results depend on the processing

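All 18 alternatives (5 other ways of scaling or testing, library sizes without mitochondrial genes, 3 other filters, the replicate number as a block, and each of the 8 libraries left out) called 26 of the genes of the pathway higher and 5 lower, and all 774 results of single genes kept their direction and their side of the threshold. The call closest to the threshold was that of NPC1, whose log2 fold change ran from -0.20 to -0.12 with an adjusted p of up to 0.035, and NPC2 ran from 0.18 to 0.27. The median log2 fold change of the enzymes ran from 1.69 to 1.80. That of all the genes of the pathway moved to 1.32 with no filter, where INSIG1 enters as the 32nd gene. Over all genes 8357 to 9070 were called, and in the wider list 14 to 18 rose and 17 to 19 fell. With 10 counts added in place of 0.5, the 6 ratios kept their direction and their side of the threshold in the exact permutation test. The labels do not say whether the replicate numbers pair the libraries. Same-numbered libraries correlated at -0.043, -0.014, 0.057 and 0.0062 in their deviations from the group means. Differently numbered ones correlated at -0.0825 to 0.1097. These values show no pairing but cannot settle whether the cultures were paired. With the number as a block all the same, 8490 genes were called, and 26 and 5 genes of the pathway. With each library left out in turn, all 6 ratios kept their direction. The difference ran from 1.00 to 1.15 for TM7SF2/LBR, from -0.44 to -0.37 for NPC1/NPC2, from -0.94 to -0.76 for FDFT1/GGPS1 and from 2.15 to 2.27 for ACAT2/ACAT1. For these 4 pairs p was 0.0286 throughout (exact permutation test), and the adjusted p of 0.04 moved to 0.05, not below the threshold, without 2D-primed replicate 2, 3 or 4. The ratio FDFT1/GGPS1 shares the uncertainty of the FDFT1 counts in every setting. MBTPS1/MBTPS2 ran from -0.23 to -0.16 and lost its call without any 1 of the 2D-primed libraries (adjusted p = 0.0571 to 0.08, exact permutation test). SOAT1/SOAT2 ran from -0.16 to -0.09 and passed the test in none of the 8 settings (adjusted p = 0.0571 to 0.143, exact permutation test). The 31 tested genes held at least 79 counts in every library, and INSIG1 has no usable value at this depth.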

Other observations

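Of the identifiers that the annotation does not name, 650 held enough counts to be tested, and 109 were called higher and 136 lower in 3D-primed cells by edgeR. Among the 236 of them with a mean of 10 CPM or more, the largest rises were those of ENSG00000284967 and ENSG00000227567, which were chosen after their values were seen. The first went from 154 ± 20.6 to 609.6 ± 23.5 CPM (SD, n = 4; log2 fold change 1.98, edgeR adjusted p = 6.3e-08) and the second from 126 ± 7.79 to 409 ± 26.6 CPM (log2 fold change 1.70, edgeR adjusted p = 2.1e-08). The tables used here do not pair these identifiers with a gene name, and whether either holds reads of a gene described above was not tested.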
